A study of Mus musculus with 12 samples.

Results

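The acute phase and hepatocyte plasma protein genes are transcripts of secreted liver proteins, and of a few receptors and calcium binding proteins, that change in level during systemic inflammation. A list of 34 genes was read from the 12 liver arrays by taking, for each gene, the probe set that named it alone and had the highest mean over all arrays. Of these genes 33 were found among the 18193 genes with such a probe set. Serpina3m, a mouse relative of alpha-1-antichymotrypsin, was not found. The genes found comprised 28 positive acute phase genes, which inflammation is known to raise, and 5 negative acute phase genes (Ahsg, Ttr, Alb, Serpina6 and Rbp4), which it is known to lower.

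The arrays were Affymetrix expression arrays of livers from male mice, 3 for each of 4 groups. Nrf2 null mice received CDDO-Im by gavage at 30 uM/kg (the unit as labelled), Nrf2 null mice received vehicle at a dose of 0 uM/kg, wild type mice received CDDO-Im at 30 uM/kg, and wild type mice received vehicle at 0 uM/kg. All livers belonged to the 6 hour time point. Strain, age and the null allele are not given in the sources used here. Nrf2 is the product of Nfe2l2, a transcription factor that switches on antioxidant and detoxification genes, and CDDO-Im is the imidazolide of the synthetic triterpenoid CDDO, which is known to activate it. The labels number the replicates but do not say that each array is a separate animal, so p-values measure the spread between these arrays, which may be technical. Every vehicle title, and no CDDO-Im title, carries the mark "(2)", whose meaning is not given, so whatever it stands for cannot be told apart from the treatment.

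In the acute phase response, cytokines of the IL-6 and IL-1 families reach the hepatocyte from macrophages and other cells. IL-6 signals through the receptor subunit gp130 (Il6st) to the transcription factor Stat3, which also induces its own inhibitor Socs3. IL-1 signals through Il1r1 to NF-kB, and C/EBP factors, among them Cebpb and Cebpd, act with both pathways on the promoters of plasma protein genes. The liver then secretes serum amyloid A, acid glycoproteins, haptoglobin, fibrinogen and protease inhibitors, while it makes less albumin, transthyretin and retinol binding protein.

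The promoters of 7 positive acute phase genes are shown because they hold matches to the C/EBP motif or the STAT motif close to the start site. Each sequence is the 250 bases before the annotated start on the gene's own strand, 5′ to 3′, from RefSeq on GRCm38.p6. Capitals mark the letters TTGCNNAA, taken as a C/EBP motif, or TTCNNNGAA, taken as a STAT motif. Positions are counted from the start site, with the last base before it at -1.
Saa1: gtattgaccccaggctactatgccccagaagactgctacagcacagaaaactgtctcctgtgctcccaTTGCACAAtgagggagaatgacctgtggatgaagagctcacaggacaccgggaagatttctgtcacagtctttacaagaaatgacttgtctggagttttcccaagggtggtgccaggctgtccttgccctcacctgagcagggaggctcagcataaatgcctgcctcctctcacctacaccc
Saa2: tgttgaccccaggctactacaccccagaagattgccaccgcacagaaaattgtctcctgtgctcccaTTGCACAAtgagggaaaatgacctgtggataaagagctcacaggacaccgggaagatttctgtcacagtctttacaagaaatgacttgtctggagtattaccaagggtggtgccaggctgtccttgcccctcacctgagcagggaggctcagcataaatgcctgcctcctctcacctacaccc
Orm2: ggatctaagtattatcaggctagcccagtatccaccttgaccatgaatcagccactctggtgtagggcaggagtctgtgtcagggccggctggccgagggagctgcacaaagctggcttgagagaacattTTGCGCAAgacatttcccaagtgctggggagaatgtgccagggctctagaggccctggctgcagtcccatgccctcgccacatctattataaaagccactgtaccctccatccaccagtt
Lcn2: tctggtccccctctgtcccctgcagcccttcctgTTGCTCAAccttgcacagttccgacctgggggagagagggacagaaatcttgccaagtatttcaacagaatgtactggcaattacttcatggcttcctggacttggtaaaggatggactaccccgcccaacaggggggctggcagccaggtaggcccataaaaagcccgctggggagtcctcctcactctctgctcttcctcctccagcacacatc
Steap4: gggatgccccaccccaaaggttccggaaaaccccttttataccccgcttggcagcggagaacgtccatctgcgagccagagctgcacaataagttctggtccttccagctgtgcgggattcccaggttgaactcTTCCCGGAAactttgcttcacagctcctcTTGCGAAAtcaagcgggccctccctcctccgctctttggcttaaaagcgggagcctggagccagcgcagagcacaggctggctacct
Fgb: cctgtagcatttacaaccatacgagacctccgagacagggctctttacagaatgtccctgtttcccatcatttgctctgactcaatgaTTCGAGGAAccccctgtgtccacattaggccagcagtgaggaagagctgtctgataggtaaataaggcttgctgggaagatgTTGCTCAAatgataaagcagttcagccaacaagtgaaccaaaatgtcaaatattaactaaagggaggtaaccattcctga
Itih4: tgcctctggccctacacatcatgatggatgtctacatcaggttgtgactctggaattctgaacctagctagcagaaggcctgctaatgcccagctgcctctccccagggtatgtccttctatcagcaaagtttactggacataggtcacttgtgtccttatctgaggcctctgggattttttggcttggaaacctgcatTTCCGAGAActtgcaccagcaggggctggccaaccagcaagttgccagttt
The window of Saa1 lies at chr7:46742981-46743230 on the minus strand, and that of Saa2 at chr7:46751583-46751832 on the plus strand. Their C/EBP matches stand at -182 to -175 in Saa1 and at -183 to -176 in Saa2, and 238 of 249 aligned bases of these windows are identical (95.58%). The Orm2 window, chr4:63362199-63362448 on the plus strand, has its C/EBP match at -120 to -113. The Lcn2 window, chr2:32387740-32387989 on the minus strand, has one at -216 to -209. In Steap4, chr5:7960222-7960471 on the plus strand, a STAT match at -116 to -108 is followed by a C/EBP match at -87 to -80. In Fgb, chr3:83049864-83050113 on the minus strand, a STAT match at -162 to -154 is followed by a C/EBP match at -80 to -73. The Itih4 window, chr14:30886226-30886475 on the plus strand, has a STAT match at -51 to -43.

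Promoter windows of RefSeq were matched to 25 of the 33 genes found, 22 positive genes with 26 windows and 3 negative genes with 4 windows. A C/EBP match on either strand was present in 14 of the 26 windows of positive genes (53.85%). It was present in 9 of 38 windows (23.68%) of 35 other plasma protein genes and in 9.56% of all 32851 windows of the table. The genes of those 14 windows were Saa1, Saa2, Saa3, Saa4, Orm2, Orm3, Hpx, Lcn2, Cp, Steap4, Fga, Fgb, Il1r1 and S100a9. A STAT match was present in 5 of the 26 windows (19.23%), those of Steap4, Fga, Fgb, Apcs and Itih4, against 13.16% for the other plasma protein genes and 7.02% of all windows. Both motifs stood together in the windows of Steap4, Fga and Fgb, which is 11.54% of the 26 windows against 0.74% of all windows.

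For GGG and CC with 5 bases between them on either strand, taken as an NF-kB motif, the share was 50.0% of the windows of positive genes, against 47.37% for other plasma protein genes and 45.8% of all windows. The letters TGACNNNGC, taken as an antioxidant response element (ARE, the site known to bind Nrf2), were found in 7.69% of the windows of positive genes, those of Hpx and Itih3, against 7.89% and 10.16%. Of the 4 windows of negative genes, 3 held a C/EBP match and 0 a STAT match. The windows overlap in sequence between paralogs: 219 of 245 aligned bases are identical between Orm2 and Orm3 (89.39%). Mean GC content was 49.91% in the windows of positive genes and 53.22% over all windows. No match of one motif overlapped a match of another in the windows of the listed genes. These matches describe letters in a window and no binding was measured.

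**Figure D1:**
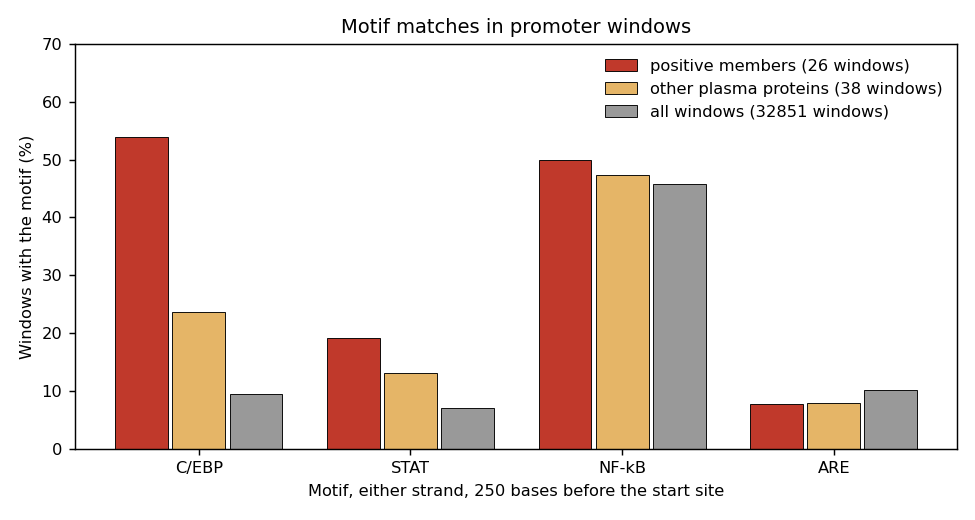
Share of promoter windows (y axis, percent) that held each motif on either strand within 250 bases before the start site (x axis), for positive acute phase genes (red, 26 windows), other plasma protein genes (yellow, 38 windows) and all windows (grey, 32851 windows). The C/EBP share was 53.85%, 23.68% and 9.56% in that order, while the NF-kB shares lay between 45.8% and 50.0%.

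The deposited values are log2 intensities from robust multi-array averaging (RMA), with array medians between 5.77 and 5.83 and array maxima between 14.39 and 14.61. Nfe2l2 stood between 4.44 and 4.96 on the 6 Nrf2 null arrays and between 8.37 and 9.14 on the 6 wild type arrays, so the genotype labels held on every array. Of 8 hepatocyte markers measured, 0 passed the test with CDDO-Im in either genotype. Of all genes, 5.90% passed it in Nrf2 null livers and 1.82% in wild type livers. At such shares, 0 of 8 does not settle whether hepatocyte content changed. The marker Ass1, between 4.13 and 4.41, lay under the array median on all arrays. One array stood apart from its label. On the first principal component, which held 44.4% of the variance, wild type vehicle replicate 3 lay at 10.1, among CDDO-Im arrays at 3.0 to 25.4, while the other 5 vehicle arrays lay between -29.9 and -16.2. That array also carried pancreatic acinar transcripts: the median of 9 acinar markers was 4.06 log2 units above their mean over all arrays there, 2.10 above it on Nrf2 null vehicle replicate 2, and -0.68 to -0.52 on the other 10 arrays. The calls without each of these 2 arrays follow the counts below.

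Livers given CDDO-Im had lower levels of the positive acute phase genes than livers given vehicle, in both genotypes. In Nrf2 null livers 17 of the 28 positive genes fell, and in wild type livers 10 of 28 fell, at an adjusted p under 0.05 (limma, Benjamini-Hochberg over 18193 genes). Among all genes tested, 2.32% fell in Nrf2 null livers and 0.846% in wild type livers, and 5.90% and 1.82% were called in either direction. The 10 genes that fell in wild type livers (Saa3, Hp, Lcn2, Fgb, Fgg, Lbp, Serpina3n, Itih3, Itih4 and Il1rn) also fell in Nrf2 null livers, where they made up 10 of 17. The genes that passed in Nrf2 null livers alone were Orm1, Orm2, Orm3, Steap4, Cd14, S100a8 and S100a9, and none of them differed between the genotypes in the test of the difference given below. Fewer cells of a type and less RNA per cell cannot be told apart in whole liver.

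The differences of all 28 positive genes were negative in both genotypes, with a median of -0.93 log2 units in Nrf2 null livers and -1.09 in wild type livers, beside -0.005 and 0.0058 over all genes. All 3 CDDO-Im arrays lay below all 3 vehicle arrays for 24 of the 28 in Nrf2 null livers, against 11.4% of all genes, and for 25 of the 28 in wild type livers, against 8.18%. The unadjusted p was under 0.05 for 23 of 28 in Nrf2 null livers and for 28 of 28 in wild type livers, where 19.4% and 13.6% of all genes reached it. Among the positive genes the 3 largest mean differences in both genotypes were those of Lcn2, Saa2 and Orm2, whose CDDO-Im arrays were also widely spread. The 11 positive genes called in neither genotype (Saa1, Saa2, Saa4, Hpx, Cp, Fga, Fgl1, Crp, Apcs, A2m and Il1r1) differed by -2.98 to -0.15 in Nrf2 null livers and by -3.52 to -0.29 in wild type livers.

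**Figure D2:**
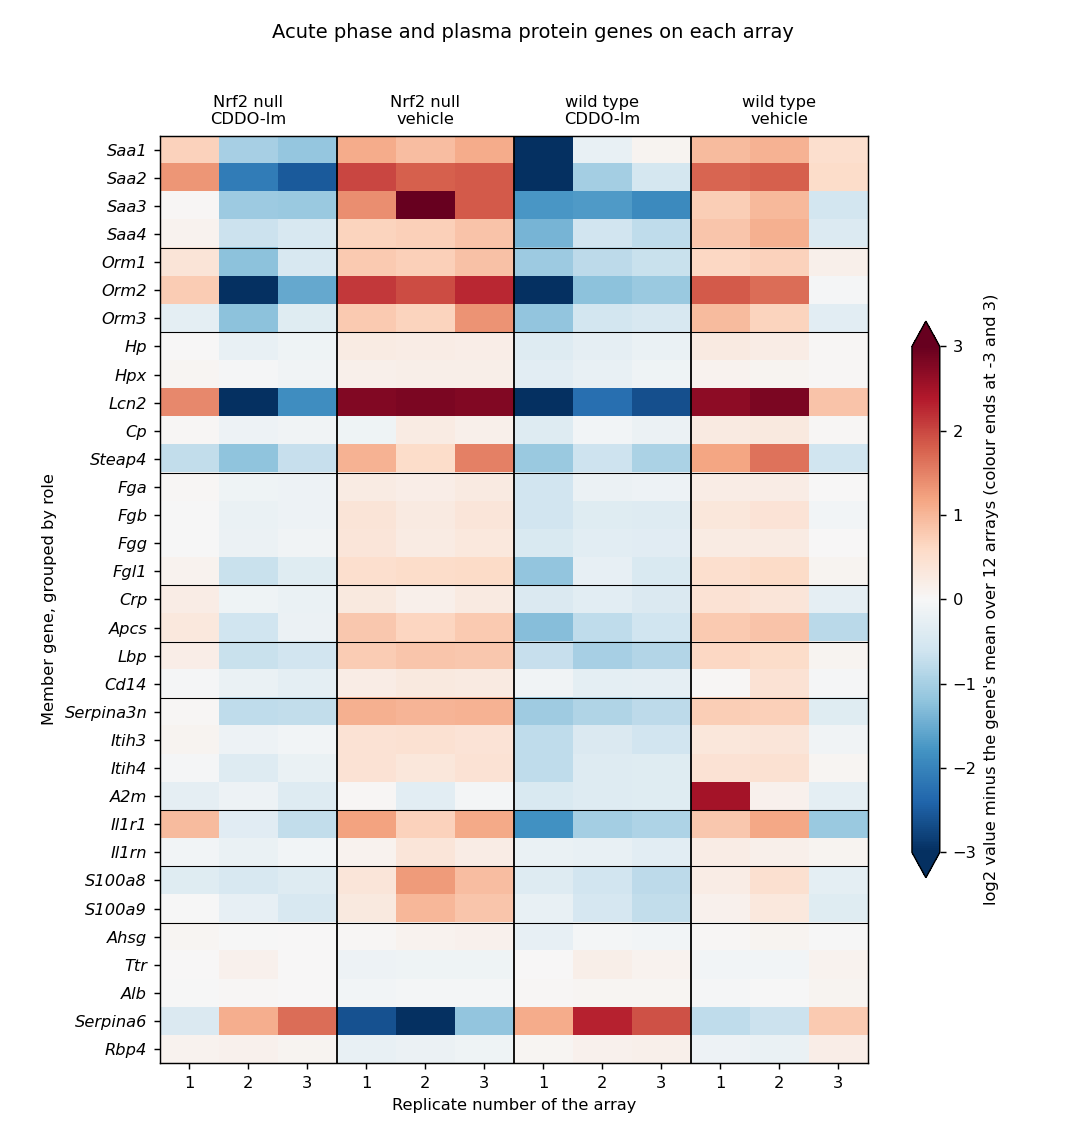
Level of each of the 33 genes (rows, grouped by role) on each array (columns, by group and replicate number), as log2 value minus the gene's mean over 12 arrays; red is above that mean and blue below it, and the colour ends at -3 and 3. Vehicle columns are red for most of the 28 positive genes, except wild type vehicle replicate 3, which holds red and blue (median deviation -0.03). CDDO-Im columns are blue for most of them, except Nrf2 null CDDO-Im replicate 1, which holds red and blue (median deviation 0.04).

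The number of genes called depended on single arrays. Leaving out 1 array at a time gave 0 to 22 of the 33 genes in Nrf2 null livers, where 18 were called with all arrays, and 1 to 27 in wild type livers, where 10 were called. Over the same fits 97 to 1615 of all 18193 genes were called in Nrf2 null livers, where 1074 were called with all arrays, and 104 to 1385 in wild type livers, where 332 were called. Without wild type vehicle replicate 3, 22 genes of the list were called in Nrf2 null livers, beside 1615 of all genes, and 27 in wild type livers (25 lower and 2 higher), beside 1385 of all genes. Without wild type vehicle replicate 1 and replicate 2, the wild type count was 1 and 3, beside 104 and 117 of all genes. Without wild type CDDO-Im replicates 1, 2 and 3 it was 4, 5 and 6, beside 212, 134 and 156 of all genes. The Nrf2 null count was 3 and 0 without Nrf2 null CDDO-Im replicates 2 and 3, beside 278 and 97 of all genes. It was 6, 5 and 6 without Nrf2 null vehicle replicates 1, 2 and 3, beside 249, 348 and 1020 of all genes. Without wild type vehicle replicate 1 or wild type CDDO-Im replicate 3 it was 11, beside 837 and 831 of all genes, since all groups share 1 estimate of the spread. Without both arrays that carried acinar transcripts, 14 genes of the list were called in Nrf2 null livers, beside 1155 of all genes, and 25 in wild type livers, beside 1293 of all genes. No call in either genotype held under all 22 alternatives tried. No positive gene changed sign in either genotype under any of them.

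Without wild type vehicle replicate 3, all 10 wild type calls were kept and 17 genes were gained, with adjusted p between 0.00016 and 0.0447 (limma). The positive genes gained were Saa4 (-1.85), Orm1 (-1.50), Orm2 (-3.74), Orm3 (-1.55), Hpx (-0.32), Cp (-0.51), Steap4 (-2.30), Fga (-0.52), Fgl1 (-1.17), Crp (-0.79), Apcs (-1.71), Cd14 (-0.45), A2m (-1.71), Il1r1 (-2.23) and S100a8 (-0.93), and the negative genes gained were Serpina6 (2.48) and Rbp4 (0.29), each given as its wild type log2 difference in that fit. In Nrf2 null livers the same fit kept all 18 calls and gained Saa4, Fgl1, Apcs and Rbp4, whose differences there do not use the array. Without Nrf2 null vehicle replicate 2, 5 of the 18 Nrf2 null calls were kept, those of Saa3 (-2.35), Fgg (-0.43), Lbp (-1.13), Serpina3n (-1.54) and S100a8 (-1.06). The other 13 had adjusted p between 0.0538 and 0.122, with differences of -4.41 for Lcn2, -3.47 for Orm2 and 2.66 for Serpina6. Wild type livers lost the calls of Lcn2 and Serpina3n in that fit. Whether a gene passed is stated with all 12 arrays in what follows, unless an array is named.

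Of the serum amyloid A genes, which encode apolipoproteins carried on high density lipoprotein, Saa3 fell in both genotypes. Saa3, which is also made outside the hepatocyte, stood at 9.49, 8.37 and 8.33 in Nrf2 null livers given CDDO-Im, against 10.85, 12.56 and 11.30 in those given vehicle. In wild type livers Saa3 stood at 7.71, 7.74 and 7.55 with CDDO-Im, against 10.19, 10.41 and 8.90 with vehicle. The groups did not overlap in either genotype, and the lowest vehicle value was that of wild type vehicle replicate 3. The difference was -2.84 ± 0.47 (SE) in Nrf2 null livers, 7.17-fold lower (adjusted p = 0.0103), and -2.17 ± 0.47 in wild type livers, 4.49-fold lower (adjusted p = 0.0410).

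Saa1 and Saa2, the inducible serum amyloids of the hepatocyte, varied too widely among CDDO-Im arrays to pass. Saa2 ranged from 10.09 to 13.94 in Nrf2 null livers given CDDO-Im, against 14.40 to 14.61 with vehicle, and from 7.69 to 12.07 in wild type livers given CDDO-Im, against 13.15 to 14.39 with vehicle. No CDDO-Im array reached the vehicle range of its genotype, yet the difference was -2.98 ± 1.10 in Nrf2 null livers (adjusted p = 0.149) and -3.52 ± 1.10 in wild type livers (adjusted p = 0.150). Saa1 had a similar spread, 11.81 to 13.66 against 13.88 to 14.07 in Nrf2 null livers and 8.88 to 13.05 against 13.46 to 14.01 in wild type livers. Its difference was -1.53 ± 0.86 (adjusted p = 0.379) and -2.24 ± 0.86 (adjusted p = 0.258), and the wild type value was -0.90 without wild type CDDO-Im replicate 1. Saa4, known as the constitutive form, differed by -1.09 ± 0.33 in Nrf2 null livers (adjusted p = 0.0819) and by -1.40 ± 0.33 in wild type livers (adjusted p = 0.0595). Saa1 and Saa2 are close copies, and the suffixes of their probe sets mark probes that can match related transcripts, so their signals may be shared. A second Saa1 probe set, without such a suffix, did not pass either. It differed by -0.95 ± 0.72 in Nrf2 null livers (adjusted p = 0.575, limma over every single-gene probe set) and by -1.80 ± 0.72 in wild type livers (adjusted p = 0.300).

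All of the acid glycoprotein genes Orm1, Orm2 and Orm3, whose products bind drugs and lipids in plasma, fell in Nrf2 null livers. Orm2 stood at 10.55, 6.69 and 8.25 in Nrf2 null livers given CDDO-Im, against 11.89, 11.73 and 12.05 with vehicle. Wild type Orm2 values were 6.19, 8.54 and 8.66 with CDDO-Im, against 11.61, 11.46 and 9.74 with vehicle. The 3 Nrf2 null CDDO-Im arrays were spread over more than the distance between the 2 groups' nearest values. The difference was -3.39 ± 0.88 in Nrf2 null livers, 10.5-fold lower (adjusted p = 0.0446), and -3.15 ± 0.88 in wild type livers, which did not pass (adjusted p = 0.102).

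Orm1 stood at 13.13, 11.51 and 12.24 in Nrf2 null livers given CDDO-Im, against 13.52, 13.46 and 13.61 with vehicle, and at 11.65, 11.96 and 12.06 in wild type livers given CDDO-Im, against 13.35, 13.44 and 12.89 with vehicle. Its difference was -1.23 ± 0.31 in Nrf2 null livers (adjusted p = 0.0377) and -1.34 ± 0.31 in wild type livers (adjusted p = 0.0504). The wild type difference was thus as large and lay at the threshold. Orm3 stood at 7.87, 6.93 and 7.79 in Nrf2 null livers given CDDO-Im, against 8.93, 8.83 and 9.51 with vehicle, and at 6.98, 7.60 and 7.67 in wild type livers given CDDO-Im, against 9.10, 8.83 and 7.83 with vehicle. It fell in Nrf2 null livers, by 1.56 ± 0.34 on the log2 scale (adjusted p = 0.0232), and the wild type difference was -1.17 ± 0.34 (adjusted p = 0.118). Parts of the Orm transcripts are nearly identical between paralogs, so the array signals may be shared among them.

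Among the proteins that bind heme, iron and copper, Lcn2 and Hp fell in both genotypes and Steap4 in Nrf2 null livers. Lcn2, lipocalin, which withholds iron from bacteria by binding their siderophores, showed the largest mean difference of the 33 genes. It stood at 12.33, 6.39 and 9.02 in Nrf2 null livers given CDDO-Im, against 13.66, 13.70 and 13.66 with vehicle, and at 5.98, 8.62 and 8.24 in wild type livers given CDDO-Im, against 13.57, 13.70 and 11.73 with vehicle. Vehicle values were nearly equal but for wild type vehicle replicate 3, while the CDDO-Im values within a genotype were widely scattered. The difference was -4.43 ± 1.17 in Nrf2 null livers, 21.5-fold lower (adjusted p = 0.0480), and -5.38 ± 1.17 in wild type livers, 41.7-fold lower (adjusted p = 0.0429). Both calls lay close to the threshold, and the adjusted p ranged from 0.00703 to 0.146 in Nrf2 null livers and from 0.00263 to 0.190 in wild type livers over the alternatives.

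Hp, haptoglobin, which captures free hemoglobin, fell by a small amount in both genotypes. It stood at 14.17, 13.92 and 14.02 in Nrf2 null livers given CDDO-Im, against 14.39, 14.36 and 14.35 with vehicle, and at 13.75, 13.88 and 13.95 in wild type livers given CDDO-Im, against 14.41, 14.38 and 14.18 with vehicle. It fell by 0.33 ± 0.09 in Nrf2 null livers (adjusted p = 0.0488) and by 0.46 ± 0.09 in wild type livers (adjusted p = 0.0233), both on the log2 scale. Hp on wild type vehicle replicate 1, and Saa2 on Nrf2 null vehicle replicates 1 and 3 and wild type vehicle replicate 2, were the highest value of their array, and whether differences at this end of the scale are compressed was not tested.

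Steap4, a metalloreductase that reduces iron and copper, stood at 9.27, 8.80 and 9.30 in Nrf2 null livers given CDDO-Im, against 11.04, 10.54 and 11.50 with vehicle. Wild type values of Steap4 were 8.89, 9.38 and 9.04 with CDDO-Im, against 11.18, 11.61 and 9.40 with vehicle. The wild type groups did not overlap, though wild type vehicle replicate 3, at 9.40, lay next to the CDDO-Im values. Steap4 fell 3.75-fold in Nrf2 null livers (-1.91 ± 0.45, adjusted p = 0.0312), and the wild type difference of -1.63 ± 0.45 did not pass (adjusted p = 0.0966) but was -2.30 and passed without that array. Hpx, hemopexin, which binds free heme, and Cp, ceruloplasmin, the copper carrying ferroxidase of plasma, passed in neither genotype. Hpx differed by -0.20 ± 0.07 in Nrf2 null livers (adjusted p = 0.138) and by -0.29 ± 0.07 in wild type livers (adjusted p = 0.0603), and Cp by -0.16 ± 0.12 (adjusted p = 0.527) and -0.43 ± 0.12 (adjusted p = 0.0942).

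Of the 3 fibrinogen chains, from which the clotting protein is assembled, Fgb and Fgg fell in both genotypes. Fgg, the gamma chain, stood at 13.74, 13.56 and 13.64 in Nrf2 null livers given CDDO-Im, against 14.10, 13.99 and 14.06 with vehicle, and at 13.29, 13.42 and 13.41 in wild type livers given CDDO-Im, against 13.98, 13.99 and 13.76 with vehicle. The arrays of a group lay close together, and the groups did not overlap. Fgg fell by 0.40 ± 0.08 on the log2 scale in Nrf2 null livers, 1.32-fold (adjusted p = 0.0187), and by 0.54 ± 0.08 in wild type livers, 1.45-fold (adjusted p = 0.00678). It was the only one of the 33 genes whose wild type call held whichever of the 12 arrays was left out, and no gene's Nrf2 null call held in all 12. With only the wild type arrays fitted, the Fgg call there was lost (adjusted p = 0.0608).

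Fgb, the beta chain, stood at 13.79, 13.59 and 13.64 in Nrf2 null livers given CDDO-Im, against 14.18, 14.07 and 14.16 with vehicle, and at 13.21, 13.43 and 13.41 in wild type livers given CDDO-Im, against 14.13, 14.19 and 13.72 with vehicle. Its difference was -0.46 ± 0.12 in Nrf2 null livers (adjusted p = 0.0416) and -0.67 ± 0.12 in wild type livers (adjusted p = 0.0148). The alpha chain, Fga, did not pass, with -0.33 ± 0.11 (adjusted p = 0.115) in Nrf2 null livers and -0.44 ± 0.11 (adjusted p = 0.0705) in wild type livers. Fgl1, a fibrinogen-like protein secreted by hepatocytes, did not pass either, with -0.85 ± 0.24 (adjusted p = 0.0603) and -1.02 ± 0.24 (adjusted p = 0.0560).

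The pentraxins, ring-shaped proteins that bind microbial surfaces and damaged cells, passed in neither genotype. Apcs, serum amyloid P, is the main acute phase pentraxin of the mouse. It ranged from 12.42 to 13.35 in Nrf2 null livers given CDDO-Im, against 13.67 to 13.84 with vehicle, and from 11.76 to 12.42 in wild type livers given CDDO-Im, against 12.23 to 13.90 with vehicle. The wild type groups overlapped through wild type vehicle replicate 3 alone, and the difference there was -1.16 ± 0.38 (adjusted p = 0.163), or -1.71 and called without that array. In Nrf2 null livers the difference was -0.90 ± 0.38 (adjusted p = 0.206). Crp, C-reactive protein, which is a weak responder in mice, differed by -0.27 ± 0.17 in Nrf2 null livers (adjusted p = 0.430) and by -0.56 ± 0.17 in wild type livers (adjusted p = 0.120).

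Lbp, which carries bacterial lipopolysaccharide to its receptor complex, fell in both genotypes. It stood at 11.13, 10.28 and 10.38 in Nrf2 null livers given CDDO-Im, against 11.70, 11.77 and 11.74 with vehicle, and at 10.26, 9.94 and 10.06 in wild type livers given CDDO-Im, against 11.56, 11.49 and 11.02 with vehicle. No CDDO-Im array reached a vehicle array. Lbp was 2.21-fold lower in Nrf2 null livers (-1.14 ± 0.20, adjusted p = 0.0113) and 2.41-fold lower in wild type livers (-1.27 ± 0.20, adjusted p = 0.00797). Each call was lost without a single array, with an adjusted p of 0.0557 without Nrf2 null CDDO-Im replicate 3 and of 0.0527 without wild type vehicle replicate 1. A second probe set of Lbp, with a lower mean, passed in Nrf2 null livers (-0.885 ± 0.21, adjusted p = 0.0349, limma over every single-gene probe set). In wild type livers that probe set did not pass (-0.59 ± 0.21, adjusted p = 0.222).

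Cd14, the coreceptor to which Lbp hands lipopolysaccharide, stood at 7.52, 7.35 and 7.25 in Nrf2 null livers given CDDO-Im, against 7.78, 7.85 and 7.84 with vehicle. It stood at 7.44, 7.27 and 7.29 in wild type livers given CDDO-Im, against 7.59, 7.98 and 7.53 with vehicle. The wild type groups lay side by side without overlap. Cd14 fell in Nrf2 null livers, by 0.45 ± 0.11 on the log2 scale (adjusted p = 0.0421), and the wild type difference was -0.36 ± 0.11 (adjusted p = 0.148).

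Serpina3n, an inhibitor of serine proteases, and the inter-alpha-trypsin inhibitor heavy chains Itih3 and Itih4, which bind hyaluronan or act as acute phase proteins of plasma, fell in both genotypes. Serpina3n stood at 12.44, 11.64 and 11.67 in Nrf2 null livers given CDDO-Im, against 13.46, 13.42 and 13.45 with vehicle. In wild type livers it stood at 11.35, 11.51 and 11.62 with CDDO-Im, against 13.13, 13.12 and 12.03 with vehicle. Nrf2 null vehicle arrays were almost equal, and the lowest vehicle value was again that of wild type vehicle replicate 3. The difference was -1.52 ± 0.27 in Nrf2 null livers, 2.88-fold lower (adjusted p = 0.0115), and -1.27 ± 0.27 in wild type livers, 2.41-fold lower (adjusted p = 0.0399).

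Itih3 stood at 13.49, 13.24 and 13.31 in Nrf2 null livers given CDDO-Im, against 13.83, 13.84 and 13.81 with vehicle, and at 12.64, 12.97 and 12.82 in wild type livers given CDDO-Im, against 13.73, 13.76 and 13.30 with vehicle. Its difference was -0.48 ± 0.12 in Nrf2 null livers (adjusted p = 0.0443) and -0.78 ± 0.12 in wild type livers (adjusted p = 0.00813). Itih4 followed the same order of groups. It stood at 13.63, 13.28 and 13.47 in Nrf2 null livers given CDDO-Im, against 14.10, 14.00 and 14.11 with vehicle, and at 12.91, 13.27 and 13.30 in wild type livers given CDDO-Im, against 14.10, 14.11 and 13.72 with vehicle. Its difference was -0.61 ± 0.13 (adjusted p = 0.0232) in Nrf2 null livers and -0.82 ± 0.13 (adjusted p = 0.00917) in wild type livers. A2m, the broad protease trap alpha-2-macroglobulin, lay under the array median on 11 of 12 arrays and reached 7.76 on wild type vehicle replicate 1 alone. Its difference was -0.15 ± 0.52 (adjusted p = 0.923) in Nrf2 null livers and -1.17 ± 0.52 (adjusted p = 0.337) in wild type livers, and the wild type value was -0.31 without that array.

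Il1rn, the secreted antagonist that occupies the IL-1 receptor, fell in both genotypes by a small amount. It stood at 7.87, 7.75 and 7.86 in Nrf2 null livers given CDDO-Im, against 8.04, 8.30 and 8.17 with vehicle, and at 7.74, 7.72 and 7.62 in wild type livers given CDDO-Im, against 8.17, 8.11 and 8.04 with vehicle. Wild type vehicle replicate 3 did not stand apart here as much as in other genes. The difference was -0.34 ± 0.08 in Nrf2 null livers (adjusted p = 0.0288) and -0.41 ± 0.08 in wild type livers (adjusted p = 0.0248). Il1r1, the signalling receptor itself, passed in neither genotype. It ranged from 8.22 to 9.91 in Nrf2 null livers given CDDO-Im, against 9.66 to 10.18 with vehicle, and from 7.14 to 8.03 in wild type livers given CDDO-Im, against 7.84 to 10.11 with vehicle. The groups overlapped in both genotypes, and the differences were -1.06 ± 0.54 (adjusted p = 0.327) and -1.53 ± 0.54 (adjusted p = 0.210).

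S100a8 and S100a9, which form the calcium binding protein calprotectin of neutrophils and monocytes, fell in Nrf2 null livers. S100a8 stood at 4.66, 4.54 and 4.64 in Nrf2 null livers given CDDO-Im, against 5.40, 6.30 and 5.96 with vehicle, and at 4.65, 4.45 and 4.25 in wild type livers given CDDO-Im, against 5.25, 5.50 and 4.74 with vehicle. It lay under the array median on all arrays but Nrf2 null vehicle replicates 2 and 3. S100a9 stood at 6.39, 6.16 and 5.93 in Nrf2 null livers given CDDO-Im, against 6.69, 7.41 and 7.23 with vehicle, and at 6.19, 5.89 and 5.68 in wild type livers given CDDO-Im, against 6.54, 6.72 and 6.03 with vehicle. In Nrf2 null livers S100a8 fell 2.41-fold (-1.27 ± 0.22, adjusted p = 0.0110) and S100a9 fell 1.93-fold (-0.95 ± 0.22, adjusted p = 0.0276). The wild type differences were -0.71 ± 0.22 (adjusted p = 0.142) and -0.51 ± 0.22 (adjusted p = 0.314). Of 8 other neutrophil markers measured, 0 passed the test in either genotype, against 5.90% of all genes in Nrf2 null livers and 1.82% in wild type livers. The mean level of these markers ranged from 6.76 to 6.84 in Nrf2 null livers given CDDO-Im, against 6.65 to 6.89 with vehicle. In wild type livers it ranged from 6.67 to 6.85 with CDDO-Im, against 6.67 to 6.81 with vehicle.

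**Figure D3:**
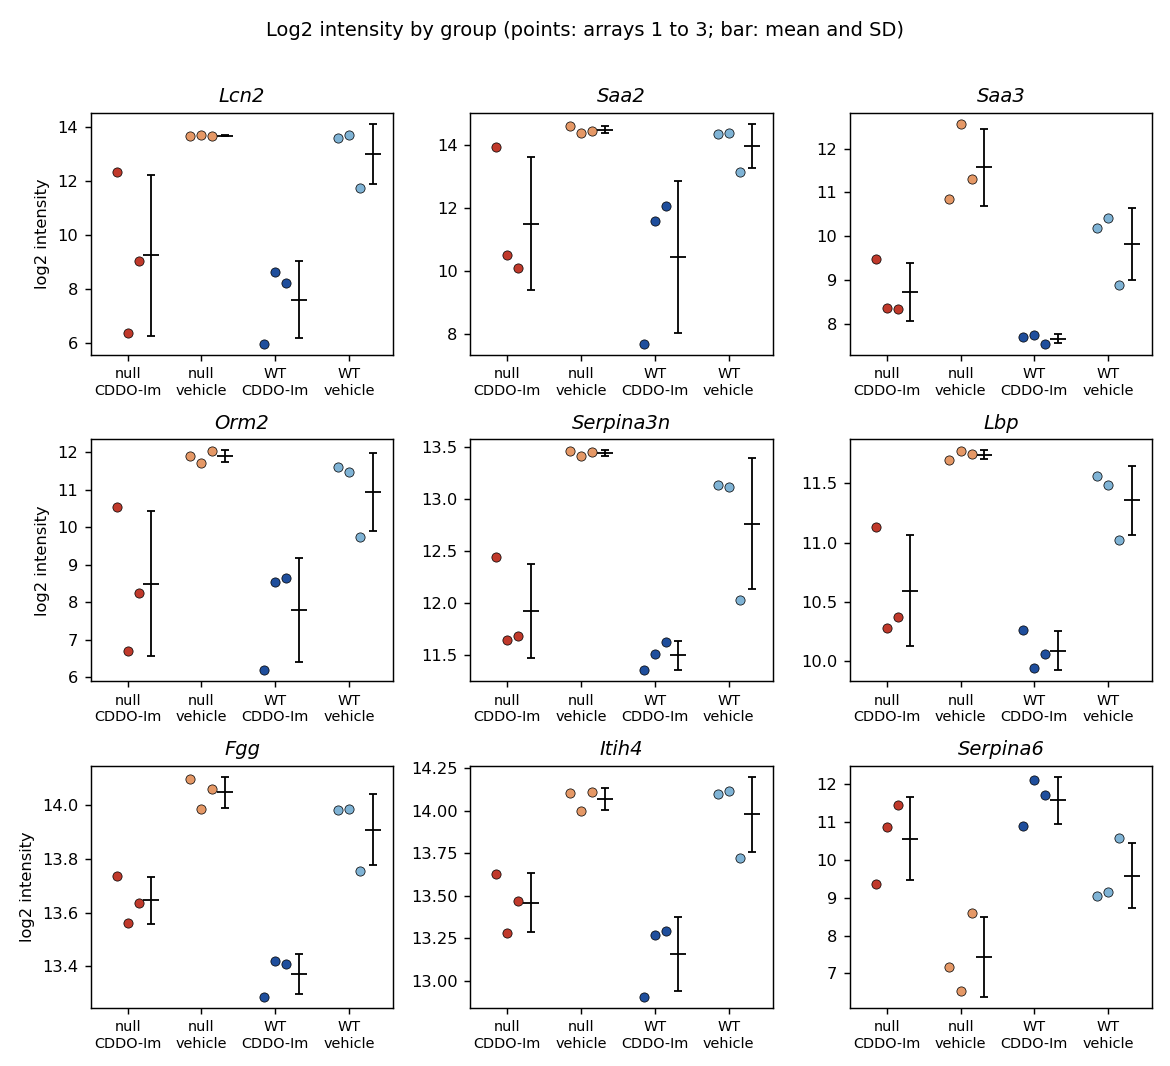
Log2 intensity (y axis) of 9 genes on each array (points, replicates 1 to 3) with the mean and SD of each group of 3 arrays beside them, for Nrf2 null livers and wild type (WT) livers given CDDO-Im or vehicle (x axis). In Nrf2 null livers Lbp ranged from 10.28 to 11.13 with CDDO-Im, against 11.70 to 11.77 with vehicle, and Serpina6 was the only gene of the 9 that was higher with CDDO-Im.

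Of the 5 negative acute phase genes, Serpina6 rose in Nrf2 null livers and the other 4 passed in neither genotype. Serpina6 encodes corticosteroid binding globulin, the plasma carrier of glucocorticoids. It stood at 9.35, 10.86 and 11.45 in Nrf2 null livers given CDDO-Im, against 7.18, 6.54 and 8.60 with vehicle, and at 10.89, 12.10 and 11.71 in wild type livers given CDDO-Im, against 9.03, 9.15 and 10.57 with vehicle. CDDO-Im arrays lay above vehicle arrays in each genotype. Serpina6 was 8.66-fold higher in Nrf2 null livers (3.11 ± 0.62, adjusted p = 0.0170), beside 3.58% of all genes that rose there. In wild type livers the difference was 1.98 ± 0.62 (adjusted p = 0.150), and it was 2.48 and passed without wild type vehicle replicate 3 (0.978% of all genes rose with all arrays).

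Ttr and Rbp4, transthyretin and the retinol carrier that travels bound to it, differed by 0.19 ± 0.07 (adjusted p = 0.178) and 0.29 ± 0.09 (adjusted p = 0.0968) in Nrf2 null livers, and by 0.12 ± 0.07 (adjusted p = 0.559) and 0.16 ± 0.09 (adjusted p = 0.513) in wild type livers. Both ranged above the vehicle arrays on all 3 CDDO-Im arrays in Nrf2 null livers and overlapped with them in wild type livers. Alb, albumin, lay between 14.19 and 14.36 on all 12 arrays, close to the array maxima, and differed by 0.07 ± 0.06 (adjusted p = 0.601) in Nrf2 null livers and by 0.04 ± 0.06 (adjusted p = 0.859) in wild type livers. Ahsg, fetuin-A, which keeps calcium phosphate in solution, differed by -0.07 ± 0.07 (adjusted p = 0.647) and -0.17 ± 0.07 (adjusted p = 0.306). On all 3 CDDO-Im arrays Alb also lay above the vehicle arrays in Nrf2 null livers, while Ahsg lay below them in wild type livers. The share of all genes whose CDDO-Im arrays lay above the vehicle arrays is not given here. The median difference of the 5 genes was 0.19 in Nrf2 null livers and 0.12 in wild type livers.

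**Figure D4:**
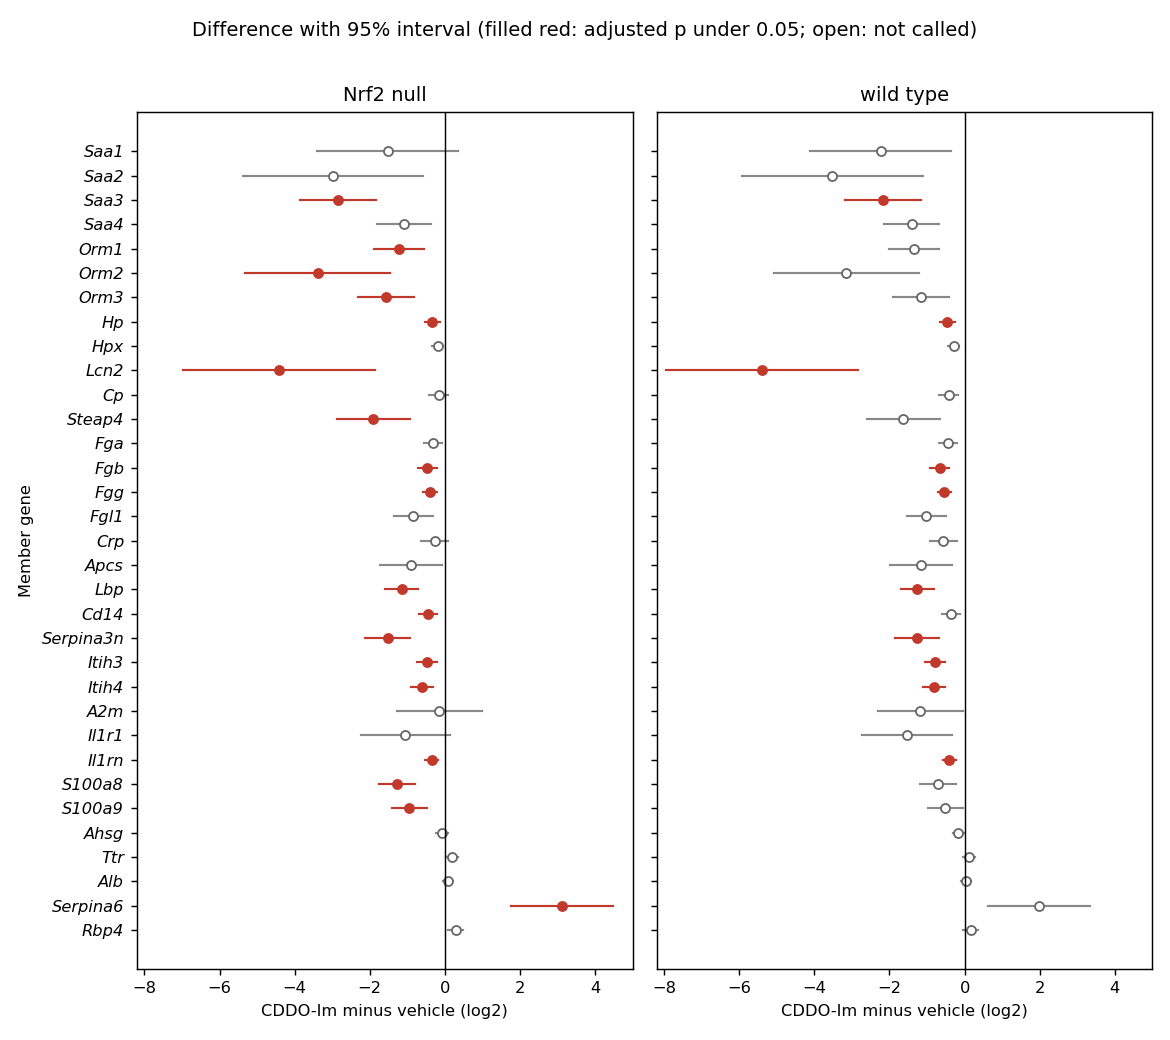
Difference between CDDO-Im and vehicle livers (x axis, log2) with its 95% interval for each of the 33 genes (rows), in Nrf2 null livers (left) and wild type livers (right); filled red points passed at an adjusted p under 0.05 and open points did not. All 28 positive genes lie left of zero in both panels, with intervals as wide as -6.98 to -1.87 for Lcn2 in Nrf2 null livers, and Serpina6 lies farthest right.

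The effect of CDDO-Im on these genes was not shown to depend on Nrf2. The interaction, the wild type effect minus the Nrf2 null effect, passed for 0 of the 33 genes (limma, adjusted p under 0.05, 0.137% of all genes) and had an unadjusted p under 0.05 for 0 of them, where 7.10% of all genes reached that. Its median over the 28 positive genes was -0.13, beside 0.0061 over all genes. The intervals were narrower for genes with even replicates and wider for the others. Even the narrower ones were not small beside the effects, which for Fgg were -0.40 in Nrf2 null livers and -0.54 in wild type livers. For Fgg the interaction was -0.13 with a 95% interval of -0.39 to 0.12, for Lbp -0.12 (-0.74 to 0.50) and for Serpina3n 0.26 (-0.58 to 1.09). For Lcn2 it was -0.96 (-4.57 to 2.66) and for Saa2 -0.54 (-3.94 to 2.86), so differences of several log2 units between the genotypes were not detectable in those genes.

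In livers given vehicle, 0 of the 33 genes differed between Nrf2 null and wild type mice at an adjusted p under 0.05 (limma), where 0.390% of all genes did. An unadjusted p under 0.05 was reached by 5 genes, Saa3, Serpina3n, S100a8, S100a9 and Serpina6, beside 13.2% of all genes. Saa3 stood at 10.85 to 12.56 in Nrf2 null vehicle livers, against 8.90 to 10.41 in wild type vehicle livers, a difference of 1.74 ± 0.47 (adjusted p = 0.141). Serpina6 stood at 6.54 to 8.60 in Nrf2 null vehicle livers, against 9.03 to 10.57 in wild type vehicle livers, a difference of -2.14 ± 0.62 (adjusted p = 0.166). Neither pair of groups overlapped. Without overlap, 8 of the 33 genes lay above wild type and 3 below it, and the share of all genes is not given here. With array weights 5 genes of the list passed (Saa3, A2m, S100a8, S100a9 and Serpina6), beside 1477 of all 18193 genes, where 71 were called without weights. The weights were 0.452 for wild type vehicle replicate 3 and 3.78 for wild type vehicle replicate 1, the array on which A2m stood at 7.76, against at most 5.38 on the other 11.

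In livers given CDDO-Im, 0 of the 33 genes differed between Nrf2 null and wild type mice at an adjusted p under 0.05 (limma), where 1.45% of all genes did, and 9 had an unadjusted p under 0.05, beside 11.3% of all genes. The differences of the 28 positive genes ranged from 0.02 to 1.63 with a median of 0.33, beside 0.0062 over all genes. Itih3 came closest, at 13.49, 13.24 and 13.31 in Nrf2 null livers, against 12.64, 12.97 and 12.82 in wild type livers. Its difference was 0.53 ± 0.12 (adjusted p = 0.0644), and it passed without wild type vehicle replicate 3 (adjusted p = 0.0104). Both genotype comparisons share arrays with the treatment comparisons, and the CDDO-Im array with the highest positive gene levels, Nrf2 null CDDO-Im replicate 1, is in this one.

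Within groups the positive genes moved together from array to array. On wild type vehicle replicate 3 all 28 were the lowest of their group, and 25 lay between the other vehicle arrays and the CDDO-Im arrays. On Nrf2 null CDDO-Im replicate 1, 26 of 28 were the highest of their group, and 23 lay between the other CDDO-Im arrays and the vehicle arrays. On wild type CDDO-Im replicate 1, 22 of 28 were the lowest of their group. The median deviation of the 28 genes from their means over 12 arrays was 0.04, -0.44 and -0.37 in Nrf2 null livers given CDDO-Im, against 0.47, 0.60 and 0.80 with vehicle, and -0.76, -0.47 and -0.51 in wild type livers given CDDO-Im, against 0.56, 0.51 and -0.03 with vehicle. Nrf2 null vehicle replicate 2, which also carried acinar transcripts, was the lowest of its group for 15 of the 28 genes and the highest for 10. For 8 of the 28 it had the highest value of all 12 arrays. The part of the acinar transcripts in the low values of wild type vehicle replicate 3 was not tested.

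**Figure D5:**
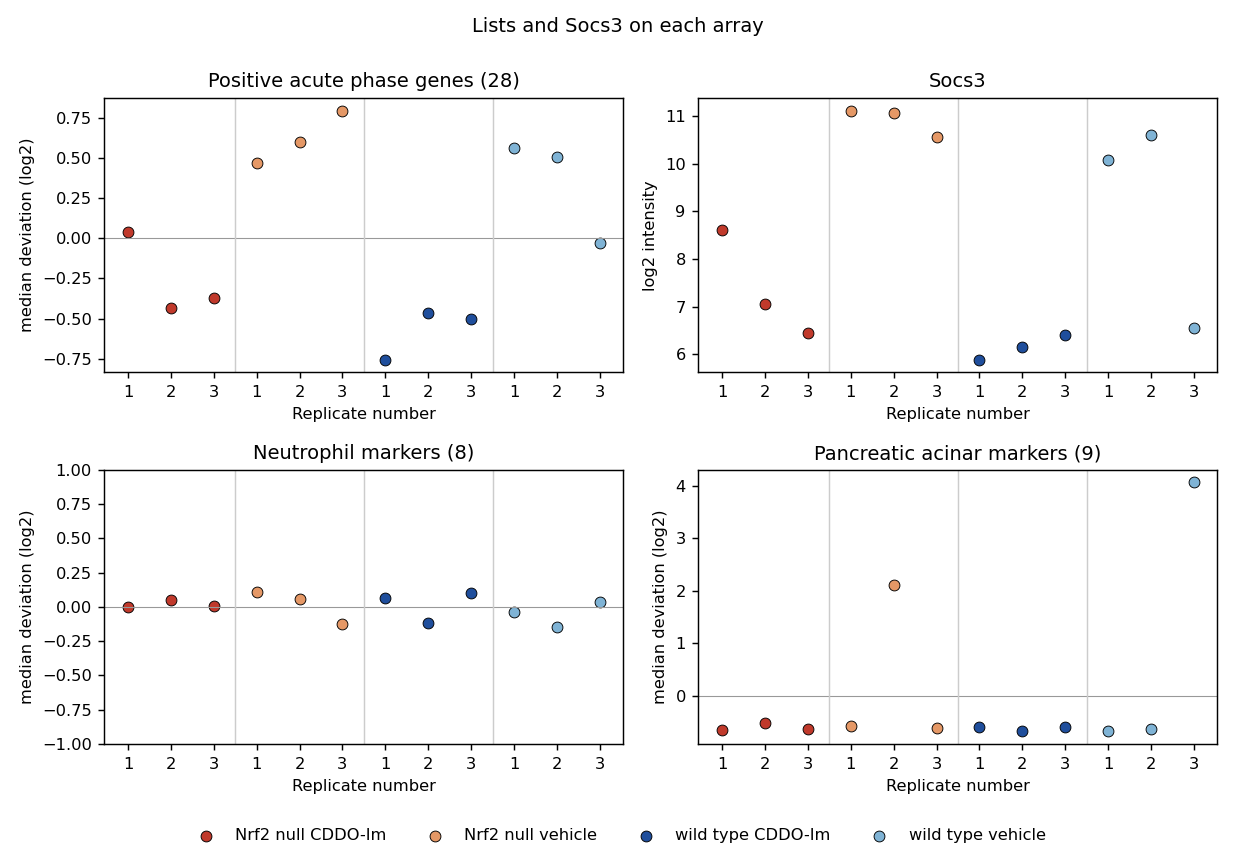
Median deviation (log2) of the 28 positive genes, log2 intensity of Socs3, and median deviations of 8 neutrophil and 9 pancreatic acinar markers (y axes) on each array by replicate number (x axes), coloured by group. Wild type vehicle replicate 3 lies at -0.03 for the positive genes, 6.56 for Socs3 and 4.06 for the acinar markers, while the neutrophil markers stay between -0.15 and 0.11.

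Among 28 measured genes of the cytokine signalling pathway, 2 fell and 3 rose in Nrf2 null livers and 1 fell in wild type livers. The calls were 17.9% of these genes in Nrf2 null livers and 3.57% in wild type livers, against 5.90% and 1.82% of all genes. Socs3, the feedback inhibitor induced by Stat3, stood at 8.60, 7.06 and 6.45 in Nrf2 null livers given CDDO-Im, against 11.11, 11.07 and 10.56 with vehicle. In wild type livers it stood at 5.88, 6.15 and 6.39 with CDDO-Im, against 10.07, 10.59 and 6.56 with vehicle. Wild type vehicle replicate 3 again lay beside the CDDO-Im arrays. Socs3 fell 11.7-fold in Nrf2 null livers (-3.55 ± 0.84, adjusted p = 0.0320), and the wild type difference was -2.93 ± 0.84 (adjusted p = 0.112). Cebpd, a C/EBP factor induced in inflammation, fell in Nrf2 null livers, at 8.46, 7.69 and 7.42 with CDDO-Im, against 8.79, 9.08 and 9.13 with vehicle (-1.14 ± 0.23, adjusted p = 0.0171). Wild type values of Cebpd were 8.30, 8.53 and 8.30 with CDDO-Im, against 8.48, 8.78 and 8.17 with vehicle (-0.10 ± 0.23, adjusted p = 0.927), and the interaction did not pass (1.04 ± 0.32, adjusted p = 0.450). Il6st, the gp130 subunit, fell in wild type livers, at 8.84, 9.13 and 9.09 with CDDO-Im, against 10.71, 10.74 and 9.53 with vehicle (-1.31 ± 0.26, adjusted p = 0.0282), and differed by -0.78 ± 0.26 in Nrf2 null livers (adjusted p = 0.112).

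The signalling genes that rose in Nrf2 null livers were Il1rap, the accessory chain of the IL-1 receptor (0.97 ± 0.16, adjusted p = 0.00958), Cebpa, a C/EBP factor of the resting hepatocyte (0.59 ± 0.15, adjusted p = 0.0405), and Nr3c1, the glucocorticoid receptor (0.58 ± 0.14, adjusted p = 0.0329). In wild type livers they differed by 0.19 ± 0.16 for Il1rap (adjusted p = 0.702), 0.06 ± 0.15 for Cebpa (adjusted p = 0.932) and -0.11 ± 0.14 for Nr3c1 (adjusted p = 0.839). The interaction passed for none of the 3, with adjusted p of 0.363, 0.630 and 0.372 in that order (limma) and unadjusted p of 0.0040, 0.0276 and 0.0044. Stat3 was called in neither genotype and stood at 10.21, 9.28 and 9.48 in Nrf2 null livers given CDDO-Im, against 10.46, 10.45 and 10.57 with vehicle, and at 9.07, 9.46 and 9.30 in wild type livers given CDDO-Im, against 10.59, 10.57 and 9.67 with vehicle. Il6 itself lay under the array median on all 12 arrays, between 3.78 and 4.07, and so did Il1b, between 5.14 and 5.77.

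Plasma proteins outside the list did not share one direction. Of 35 other acute phase and plasma protein genes measured, 5 rose and 2 fell in Nrf2 null livers and 4 fell in wild type livers, with medians of -0.005 and -0.08. The calls were 20% of these genes in Nrf2 null livers and 11.4% in wild type livers, against 5.90% and 1.82% of all genes. Serpina10, an inhibitor of coagulation factors, and Kng1, the kininogen precursor of bradykinin, fell in both genotypes. Serpina10 stood at 12.38, 11.77 and 11.96 in Nrf2 null livers given CDDO-Im, against 13.25, 13.14 and 13.26 with vehicle (-1.18 ± 0.25, adjusted p = 0.0205), and at 11.77, 11.81 and 11.85 in wild type livers given CDDO-Im, against 13.42, 13.43 and 12.32 with vehicle (-1.25 ± 0.25, adjusted p = 0.0269). Serpinf2, alpha-2-antiplasmin (-0.82 ± 0.09, adjusted p = 0.00067), and Cfb, complement factor B (-0.53 ± 0.09, adjusted p = 0.0148), fell in wild type livers. In Nrf2 null livers Serpinf2 differed by -0.29 ± 0.09 (adjusted p = 0.0927) and Cfb by -0.23 ± 0.09 (adjusted p = 0.190). The genes that rose in Nrf2 null livers were Igfals, which binds circulating insulin-like growth factor complexes (1.57 ± 0.22, adjusted p = 0.00666), Mbl2, a mannose binding lectin (1.06 ± 0.16, adjusted p = 0.00847), Hsd11b1, which regenerates active glucocorticoid (1.01 ± 0.12, adjusted p = 0.00405), Serpinf1 (0.70 ± 0.13, adjusted p = 0.0129) and Il1rap, which stands on both lists. The wild type differences were 0.36 ± 0.22 for Igfals (adjusted p = 0.567), 0.47 ± 0.16 for Mbl2 (adjusted p = 0.190), 0.50 ± 0.12 for Hsd11b1 (adjusted p = 0.0531) and 0.26 ± 0.13 for Serpinf1 (adjusted p = 0.414). The interaction passed for none of these plasma protein genes that were called in 1 genotype, with adjusted p of 0.259 for Serpinf2 as the lowest (limma, unadjusted p = 0.0017).

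Markers of other cell types were read on the same arrays. With CDDO-Im, 0 of 9 Kupffer cell and macrophage markers, 0 of 6 endothelial and 0 of 5 lymphocyte markers passed in either genotype. The same held for 0 of 5 stellate cell, 0 of 4 cholangiocyte and 0 of 2 erythroid markers. Of all genes, 5.90% passed in Nrf2 null livers and 1.82% in wild type livers. At such shares, counts of 0 in lists this short do not settle whether cell content changed. Cd3g and Nkg7 (lymphocyte), Lrat (stellate cell), Krt7 (cholangiocyte), Hba-a1 (erythroid) and Adipoq (adipocyte) lay under the array median on all arrays. Whether these markers could show a change was not tested. Of 5 adipocyte markers Fabp4, a fatty acid binding protein, fell in both genotypes (-5.74 ± 0.70 in Nrf2 null livers, adjusted p = 0.00407, and -3.73 ± 0.70 in wild type livers, adjusted p = 0.0218). The median deviation of the Kupffer cell and macrophage markers ranged from -0.08 to 0.21 in Nrf2 null livers given CDDO-Im, against -0.78 to -0.09 with vehicle, and from -0.04 to 0.52 in wild type livers given CDDO-Im, against -0.34 to 0.50 with vehicle. Their part in the levels of the acute phase genes was not tested.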

How the data were processed

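Liver RNA of 12 samples was measured on Affymetrix arrays, and the authors deposited log2 intensities made with RMA, per the submitters' processing notes. The genome build, background setting and array quality steps are not given in the sources used here. Of 45101 probe sets, 64 were controls, 34945 named 1 gene, 932 several and 9160 none; 34741 of the single-gene probe sets matched RefSeq by Entrez identifier. The brightest single-gene probe set stood for each of 18193 genes. Groups came from the titles and compound labels. All 12 arrays were fitted with 1 mean per group in limma 3.58.1 (R 4.3.3), with two-sided moderated tests and Benjamini-Hochberg adjustment over all genes. Prior degrees of freedom were 3.81 and residual degrees 8. The number of arrays, 3 per group, limits the precision, and an exact permutation test of 3 against 3 cannot go below 0.1. Motifs were searched in RefSeq promoter windows on GRCm38.p6 with Python 3.11.15. All genes of the list were named, in order of role. The genes, lists and named alternatives were chosen with earlier results of these data known. Alternatives changed the arrays, block, weights, variance prior, probe set rule, low value filter (mean log2 under 6) and scaling. Whether the replicate numbers pair arrays of different groups is not given in the sources used here and was not settled by their correlations.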

Additional observations from a re-analysis of the deposited data

How the results depend on the processing

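Each comparison was refitted under 22 alternatives (21 for the interaction), and 0 of the called differences reversed, but no call in either genotype held under all of them. Leaving out 1 array at a time gave 0 to 22 genes called for CDDO-Im against vehicle in Nrf2 null livers (18 with all arrays), 1 to 27 in wild type livers (10 with all arrays), 0 to 1 between genotypes with CDDO-Im (Itih3, without wild type vehicle replicate 3), and 0 between genotypes with vehicle and for the interaction. Without both arrays that carried acinar transcripts the counts were 14 in Nrf2 null livers, 25 in wild type livers and 1 between genotypes with CDDO-Im. With only the compared arrays fitted they were 17 in Nrf2 null livers and 3 in wild type livers, where fewer arrays estimate the spread. Of all genes, 1193 were called in Nrf2 null livers and 110 in wild type livers in those fits. Array weights gave 21 in Nrf2 null livers (1897 of all genes, 1074 without weights), 28 in wild type livers (2023, 332 without weights), 5 between genotypes with vehicle (1477, 71 without weights) and 1 with CDDO-Im (386, 263 without weights). The replicate number as a block gave 12 in Nrf2 null livers, beside 1000 of all genes, and 10 in wild type livers, beside 323. Those 10 were 9 lower and 1 higher, and 9 of them were also called without the block. Deviations from group means of same-numbered arrays correlated between -0.01 and 0.28 across treatments and between -0.30 and 0.04 across genotypes. Differently numbered ones correlated between -0.34 and 0.26, so these ranges do not settle whether the numbers pair the samples. The other alternatives, on the variance prior, probe set, low values and scaling, kept each count within 1.5 times. The scalings moved the median of all genes by at most 0.02 log2 units. The cause of these changes was not tested. Signals of A2m and S100a8 lay mostly under the array median, which limits their differences.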

Other observations

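Plasma protein genes outside the list differed between genotypes in a few cases. In livers given vehicle, Pigr, which carries IgA into bile and mucus, was lower in Nrf2 null than in wild type mice (-1.51 ± 0.26, adjusted p = 0.0374, limma), and so was Hsd11b1 (-0.63 ± 0.12, adjusted p = 0.0449). In livers given CDDO-Im, Serpinf2 was higher in Nrf2 null than in wild type mice (0.66 ± 0.09, adjusted p = 0.00339), and so was Pglyrp2, a peptidoglycan amidase secreted by the liver (0.78 ± 0.17, adjusted p = 0.0391). Serpinf2 stood at 12.47, 12.39 and 12.54 in those Nrf2 null livers, against 11.69, 11.77 and 11.97 in the wild type livers.

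Some genes of the list had further probe sets, tested here over every single-gene probe set. Of the 2 other probe sets of Il1rn, 1 fell more than the brightest one, by 1.47 ± 0.26 on the log2 scale in Nrf2 null livers (adjusted p = 0.0127) and by 1.16 ± 0.26 in wild type livers (adjusted p = 0.0493). The other differed by -0.14 ± 0.11 in Nrf2 null livers (adjusted p = 0.591) and by -0.19 ± 0.11 in wild type livers (adjusted p = 0.517). Of the 7 other probe sets of Cp, 3 fell in wild type livers, with differences of -0.47, -0.49 and -0.62 (adjusted p = 0.0439, 0.0292 and 0.0403). The other 4 differed there by -0.48 to 0.05. All 7 differed by -0.27 to 0.05 in Nrf2 null livers (adjusted p between 0.208 and 0.955, limma). Of the 3 other probe sets of Ttr, 1 rose in Nrf2 null livers (0.42 ± 0.10, adjusted p = 0.0326), while the other two differed there by 0.27 ± 0.09 (adjusted p = 0.118) and 0.16 ± 0.07 (adjusted p = 0.274). In wild type livers none of the 3 passed, with differences of 0.36, 0.17 and 0.21 in that order (adjusted p = 0.0995, 0.484 and 0.215).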
